A study of Mus musculus with 7 samples.

Results

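Immediate early genes and heat shock genes were followed across oligodendrocyte lineage cells (OLCs) of the adult mouse cortex. The set held 35 genes, of which 24 were immediate early genes and 11 were heat shock genes, and each was taken by its symbol from the 27998 rows of the UMI count table. All 35 symbols were present. Their levels were read in each of the 11 clusters of the authors' annotation and in each of the 3 libraries of sorted cells.

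The libraries came from 10x Genomics single-cell RNA-seq of OLCs sorted from the cortex (motor and cingulate per the labels, neocortex per the methods) at postnatal day 90 (11 to 14 weeks of age), from untreated mice of both sexes on a mixed C57BL/6-B6CBA background. All of these mice carried Emx1-Cre, in which a promoter active in the dorsal forebrain drives Cre, together with the Sox10-GFP-tdTom reporter, so that lineage cells of dorsal origin turn red and the others stay green. From 4 mice with these alleles alone (controls), the TdTom+ cells gave the library called control dOLCs (dorsal) and the GFP+ cells the library called control vOLCs (ventral). The third library, called ectopic vOLCs, held the GFP+ cells of 2 mice that also carried Sox10-DTA. This allele makes Cre-recombined lineage cells express diphtheria toxin fragment A and so removes OLCs of dorsal origin. Per the paper, most but not all of these cells were lost. Mice were pooled within a library and could not be told apart, and each condition was 1 library, so no test between conditions was possible and no p-value is given. The tissue was dissociated with enzymes and the cells were sorted before lysis, and the labels state that an earlier cohort was dropped for batch effects that its makers thought were most probably caused by stress during sorting.

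The authors' filter left 5804, 925 and 2562 cells in control dOLCs, control vOLCs and ectopic vOLCs. These cells held a median of 3489.5, 5022 and 5318.5 UMIs (counted RNA molecules) per cell. Levels are given as CPM, the UMIs of a gene for every 1000000 UMIs summed over all cells of a cluster in a library, in the order control dOLCs, control vOLCs and ectopic vOLCs unless the library is named. Ranges in parentheses after a level or a log2 ratio are 95% intervals (exact Poisson for a level, exact binomial for a ratio or a share), which cover counting error only and not the spread between mice. OPC markers such as Pdgfra and Ptprz1 summed to 13576, 16938 and 14590.0 CPM in the OPC cluster against 1979, 2034 and 1917 CPM in MOL5/6, the mature oligodendrocyte class that joins the 4 clusters MOL5/6a to MOL5/6d, and the 6 oligodendrocyte markers used, such as Mbp and Mog, summed to 23812, 24403 and 26777 CPM in MOL1. Between 6 and 24 barcode sequences were shared by a pair of libraries.

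Immediate early genes are transcribed within minutes of a stimulus, from promoters that already hold the factors they need, and without new protein synthesis. Many encode transcription factors: the Fos and Jun families pair to form AP-1, Egr1 to Egr3 are zinc finger factors, Nr4a1 and Nr4a2 are orphan nuclear receptors, and Klf2, Klf4 and Klf6 are Krüppel-like factors. Others limit the response, such as Dusp1 and Dusp6, phosphatases that switch off MAP kinases, and Zfp36, which speeds the decay of AU-rich mRNAs. Heat shock genes encode chaperones that hold, fold or disaggregate proteins, and the stress-induced ones are switched on by the factor HSF1 at heat shock elements, inverted repeats of nGAAn units. Hspa1a and Hspa1b encode the inducible Hsp70, whereas Hspa8 and Hsp90ab1 encode Hsp70 and Hsp90 proteins that most cells make all the time. Enzymatic dissociation of tissue is known to induce genes of both kinds in many cell types, the brain's included.

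The promoters of Fos, Dusp1, Hspa1a and Hspe1 are printed, because immediate early genes and stress-induced heat shock genes are both controlled at transcription, and because Fos, Dusp1 and Hspa1a were at least 2-fold higher in MOL1 than in MOL5/6 in all 3 libraries while Hspe1 was not.
Each line gives the 250 bases before the RefSeq start of the gene, on its own strand, 5′ to 3′, from build GRCm38.p6. The positions are chr12:85473640-85473889 on the plus strand for Fos, chr17:26508473-26508722 on the minus strand for Dusp1, chr17:34972157-34972406 on the minus strand for Hspa1a and chr1:55087898-55088147 on the plus strand for Hspe1. Capitals mark the TATA box TATAAA in Fos, the cyclic AMP response element TGACGTCA in Dusp1, the heat shock element letters GAANNTTC in Hspa1a, and adjoining heat shock units in Hspe1.
Fos: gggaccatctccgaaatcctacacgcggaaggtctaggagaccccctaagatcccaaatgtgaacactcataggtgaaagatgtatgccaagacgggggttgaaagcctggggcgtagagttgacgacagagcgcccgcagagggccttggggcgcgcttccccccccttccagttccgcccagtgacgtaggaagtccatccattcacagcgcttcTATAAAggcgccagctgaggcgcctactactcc
Dusp1: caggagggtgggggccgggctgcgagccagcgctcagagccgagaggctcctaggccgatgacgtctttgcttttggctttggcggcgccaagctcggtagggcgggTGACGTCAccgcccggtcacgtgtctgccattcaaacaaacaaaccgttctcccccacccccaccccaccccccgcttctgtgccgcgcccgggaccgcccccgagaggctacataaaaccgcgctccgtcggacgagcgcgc
Hspa1a: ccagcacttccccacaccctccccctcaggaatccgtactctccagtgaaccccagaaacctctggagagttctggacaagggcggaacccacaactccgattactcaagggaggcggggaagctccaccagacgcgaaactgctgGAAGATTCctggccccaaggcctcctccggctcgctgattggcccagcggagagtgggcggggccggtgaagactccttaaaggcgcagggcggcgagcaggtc
Hspe1: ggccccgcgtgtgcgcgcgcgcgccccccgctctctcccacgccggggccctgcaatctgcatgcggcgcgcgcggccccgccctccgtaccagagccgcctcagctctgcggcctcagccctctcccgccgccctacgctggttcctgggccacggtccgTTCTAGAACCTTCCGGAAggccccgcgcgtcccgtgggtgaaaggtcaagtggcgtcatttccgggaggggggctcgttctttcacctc

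RefSeq held a promoter of 300 bases, 250 before the start and 50 after it, for 27 of the 35 genes (19 immediate early and 8 heat shock genes). The 8 genes without an entry were Egr1, Egr3, Ier2, Myc, Arc, Hspa8, Hsp90aa1 and Hsp90ab1. The letters GAANNTTC, searched on both strands, stood in the promoters of 7 of the 8 heat shock genes (Dnaja1, Hspa1a, Hspa1b, Hspb1, Hspd1, Hspe1 and Hsph1) and of 2 of the 19 immediate early genes (Fosl2 and Jun), against 7.86% of all 32851 promoters of that length. A run of 3 adjoining heat shock units, which overlaps GAANNTTC or TTCNNGAA, was found in Hspd1, Hspe1 and Hsph1 and in 0.603% of all promoters. TGACGTCA was found in Btg2 and Dusp1 (1.79% of all promoters), TATAAA in Fos, Junb and Nr4a2 (13.6%) and the CArG box, which serum response factor binds, in Egr2 and Zfp36 (1.63%). The promoters of Hspa1a and Hspa1b shared 296 of 300 bases, and Hspe1 shared 285 of 300 bases with a promoter of Hspd1, its neighbour, read in the other direction. Some genes had more than 1 promoter, and a gene was counted when any of them matched, whereas the percentages are per promoter. Of the 36 promoters of the 27 genes, 10 held GAANNTTC and 5 the CArG box. These matches describe letters in a window and do not show binding.

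The set stood out most in MOL1, a small cluster of mature oligodendrocytes with 242, 34 and 93 cells, 3.97% of all cells and 3.65% of all UMIs. MOL1 held 57.7% of all Hspa1a UMIs, 48.9% of Fosb, 45.5% of Fos and 44.1% of Egr1, but only 3.88% of Hspa8 and 3.96% of Hsp90ab1. The clusters were built by the authors from the same cells and genes, and members of this set may have helped to define MOL1, so the levels that follow describe the cluster and support nothing beyond it. Oligodendrocyte markers summed to 24564, 25086 and 27349 CPM in MOL5/6, close to the values above, and the 10 microglia markers summed to 33.6, 37.8 and 25.1 CPM in MOL1 against 33.0, 35.6 and 31.4 CPM in MOL5/6. Of these 10 markers 3, 1 and 2 had a UMI in MOL1, and Cx3cr1, Csf1r, C1qa, C1qc, Tmem119 and Aif1 were at 0 in all 3 libraries. The median mitochondrial share was 8.28%, 8.68% and 5.97% in MOL1 against 7.02%, 6.96% and 6.43% in MOL5/6, and the part of this difference in the levels below was not tested.

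Among the AP-1 genes, Fos in MOL1 was at 917 CPM (854 to 983) in control dOLCs, 1777 CPM (1576 to 1997) in control vOLCs and 999.5 CPM (915 to 1089) in ectopic vOLCs, and in MOL5/6 at 26.4, 16.8 and 20.1 CPM. The 3 MOL1 levels lay far above the 3 MOL5/6 levels, 34.7-fold in control dOLCs, 106-fold in control vOLCs and 49.8-fold in ectopic vOLCs. The log2 ratios were 5.12 (4.94 to 5.30), 6.73 (6.28 to 7.20) and 5.64 (5.41 to 5.88). Fosb, the closest relative of Fos, had 105, 12 and 13 UMIs in MOL1, and in control dOLCs its level of 122 CPM compared with 1.62 CPM in MOL5/6. Jun, the main partner of Fos, was at 449, 725 and 389.8 CPM in MOL1 and at 151, 135 and 137 CPM in MOL5/6, log2 ratios of 1.57 (1.41 to 1.73), 2.42 (2.11 to 2.72) and 1.51 (1.29 to 1.73). Junb followed Fos, with 113, 139 and 151 CPM against 9.57, 3.77 and 5.39 CPM in MOL5/6. Jund, the family member with the most UMIs in these cells, differed little: 890.4, 681 and 672 CPM in MOL1 against 644, 577 and 552 CPM in MOL5/6, log2 ratios of 0.47 (0.36 to 0.57), 0.24 (-0.06 to 0.52) and 0.28 (0.12 to 0.44). The higher level in MOL1 was thus large for Fos, Fosb and Junb, smaller for Jun, and below 1.5-fold for Jund.

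The zinc finger factor Egr1 was at 157, 158 and 100.3 CPM in MOL1 and at 4.25, 2.4 and 3.69 CPM in MOL5/6, with no overlap between the clusters. Its relative Egr2 had 16, 1 and 7 UMIs in MOL1, 58.5% of its 41 UMIs in all cells, and Egr3 had 0 UMIs in every library. Dusp1, the phosphatase of MAP kinases, was at 156, 366 and 154 CPM in MOL1 against 20.4, 28.4 and 23.2 CPM in MOL5/6, log2 ratios of 2.94 (2.64 to 3.24), 3.68 (3.18 to 4.19) and 2.74 (2.35 to 3.11). Btg2, which restrains cell division, was at 76.4, 145 and 90.7 CPM in MOL1, and its 3 MOL5/6 levels lay between 11.0 and 13.4 CPM. Klf4 was at 57.9, 101 and 38.6 CPM in MOL1 and between 2.4 and 3.64 CPM in MOL5/6, whereas its relative Klf6 was at 89.2, 31.5 and 50.2 CPM in MOL1 and between 34.9 and 40.6 CPM in MOL5/6. Klf4 was therefore higher in MOL1 in all 3 libraries, while Klf6 was at least 2-fold higher in 1 of them. In control vOLCs, with 5 Klf6 UMIs in MOL1, its log2 ratio was -0.15 (-1.80 to 1.12), which leaves the direction open. Ier2, a nuclear protein of the same early wave, was at 67.2, 139 and 57.9 CPM in MOL1 against 7.35, 5.14 and 5.01 CPM in MOL5/6, and Zfp36 was at 19.7, 50.4 and 21.2 CPM in MOL1. Nr4a1, at 25.5, 50.4 and 21.2 CPM in MOL1, stood nearer to its MOL5/6 level of 17.0, 18.8 and 13.0 CPM. Dusp6, a phosphatase specific for ERK, went the other way from Dusp1 in its place of expression, with 0.580% of its 345 UMIs in MOL1. Ier3 also had little there (0.873% of its UMIs). Ier5 had 3.12% of its UMIs in MOL1, near the 3.65% of all UMIs that the cluster held. Its 6, 2 and 4 UMIs there gave 6.95, 12.6 and 7.72 CPM, against 4.99, 2.4 and 2.93 CPM in MOL5/6. Arc, best known as a synaptic protein of neurons, had 1355 UMIs in these libraries with neuron markers at 22.0, 10.6 and 13.8 CPM in MOL5/6, where Arc was at 33.7, 37.7 and 34.8 CPM, and it was at 48.6, 94.5 and 71.4 CPM in MOL1.

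Of the heat shock genes, Hspa1a differed most: 1162 CPM (1092 to 1237) in control dOLCs, 1286 CPM (1115 to 1475) in control vOLCs and 1209.9 CPM (1117 to 1308) in ectopic vOLCs in MOL1, against 32.3, 34.2 and 29.5 CPM in MOL5/6. These were ratios of 35.9-fold, 37.5-fold and 41.0-fold, and unlike Fos the 3 MOL1 levels overlapped in their intervals. Its near-identical copy Hspa1b had 77, 5 and 18 UMIs in MOL1. No stretch of 50 bases in the last 500 of the Hspa1a transcript was found in Hspa1b, but 58.8% of such stretches over the whole transcript were, so how reads were split between the copies is uncertain. Dnajb1, the co-chaperone that feeds substrates to Hsp70, was at 257, 447 and 172 CPM in MOL1 and at 36.8, 50.001 and 37.2 CPM in MOL5/6, log2 ratios of 2.80 (2.57 to 3.03), 3.16 (2.73 to 3.58) and 2.21 (1.86 to 2.54). Hsph1, an Hsp110 that recharges Hsp70, was at 77.6, 75.6 and 34.7 CPM in MOL1 and 44.0, 40.4 and 28.3 CPM in MOL5/6, less than 2-fold apart. Hspa8 was at 1543, 1777 and 1534 CPM in MOL1 against 1393, 1465 and 1541 CPM in MOL5/6, and Hsp90aa1, which encodes the stress-inducible form of Hsp90, at 3094, 3119.7 and 2783 CPM against 2639, 2489 and 2324 CPM, both within 2-fold. Hsp90ab1, Hspd1, Hspe1 and Dnaja1, which encode a constitutive Hsp90, both subunits of the mitochondrial chaperonin and a second J-domain co-chaperone, had log2 ratios between -0.75 (Hspe1, control vOLCs) and 0.18 (Hspd1, control dOLCs). Heat shock element letters were present in the promoters of Hspa1a, Hspd1, Hspe1 and Dnaja1 alike.

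**Figure D1:**
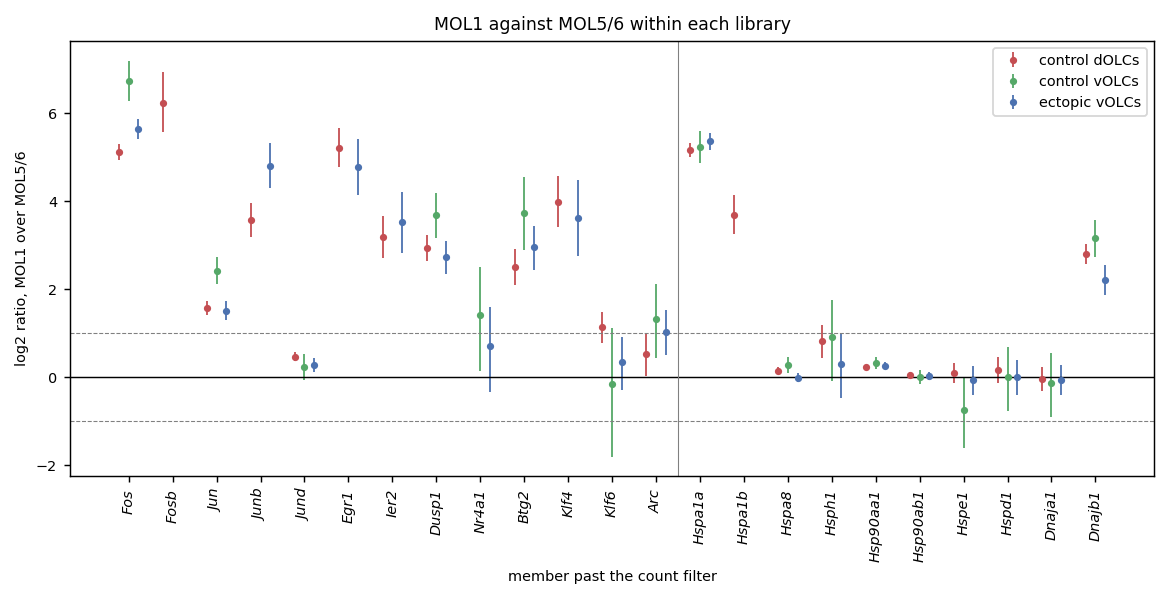
Log2 ratio of the level in MOL1 to the level in MOL5/6 for the immediate early and heat shock genes in each library, with 95% intervals that cover counting error only and dashed lines at 2-fold. Fos and Hspa1a sit above 5 on the log2 scale in all 3 libraries, while Jund, Hspa8, Hsp90aa1 and Hsp90ab1 sit near 0.

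Counted over genes with at least 50 UMIs in the 2 clusters summed that were detected in 10% or more of the cells of either, 10 of 12 immediate early genes were at least 2-fold higher in MOL1 than in MOL5/6 in control dOLCs, 6 of 8 in control vOLCs and 9 of 12 in ectopic vOLCs. The same held for 3 of 10, 2 of 9 and 2 of 9 heat shock genes. Over all genes past that filter 0.372%, 2.7% and 1.2% were at least 2-fold higher. None of the 22, 17 and 21 genes of the set that passed the filter was at least 2-fold lower, against 0.131%, 9.11% and 1.42% of all genes. With cells thinned to 1000 UMIs 6 of 13, 3 of 10 and 4 of 11 genes of the set were higher and 1 was lower (in control vOLCs), and without the filter 20 of 29 were higher in control vOLCs and 20 of 31 in ectopic vOLCs. The share of all genes is not given for either of these settings. The median log2 ratio of the immediate early genes was 3.07, 1.92 and 2.84, that of the heat shock genes 0.20, 0.28 and 0.03, and that of all genes -0.03, -0.09 and -0.01. In control dOLCs 13 of the 17 genes past 2-fold belonged to the set. A gene that is sparse in MOL5/6 passes this filter only through MOL1 and then has to differ, so these counts are a description. Of 39 further immediate early genes, 38 were in the table, and 1, 2 and 2 of the 10, 10 and 12 past the filter were at least 2-fold higher in MOL1: Gadd45b, a stress-response gene, in control dOLCs (log2 2.02), Gadd45b (1.93) and Plk3 (1.13) in control vOLCs, and Gadd45b (1.58) and Klf10 (2.35) in ectopic vOLCs. Zfp36l2 was lower in control vOLCs (-1.91). Of 44 further chaperones in the table, 32, 36 and 36 passed the filter, 1 of them was at least 2-fold higher (Hspa13 in control vOLCs, 1.13) and 2 were lower (Hspa2, -2.06, and Hspa4l, -1.05, both in control vOLCs), and their median log2 ratios were -0.04, -0.03 and -0.02. None of the 5 genes of the unfolded protein response that passed the filter was past 2-fold in MOL1, and among factors that act upstream, such as Creb1 and MAP kinases, Mapk8 in control vOLCs (1.39) and Elk4 in ectopic vOLCs (1.00) were.

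Not every MOL1 cell carried the same members. To compare shares, each cell was thinned to 1000 UMIs, which left out no cell. Fos then had a UMI in 41.3%, 64.7% and 52.7% of MOL1 cells, against 2.75%, 1.43% and 1.52% of MOL5/6 cells (at full depth 63.6%, 73.5% and 82.8% against 8.29%, 6.77% and 8.52%). Hspa1a had one in 57.9%, 55.9% and 58.1% of MOL1 cells, against 3.07%, 3.21% and 2.88% of MOL5/6 cells (at full depth 83.1%, 82.4% and 78.5% against 10%, 10.5% and 11.3%). No sorted population is known to lack these genes, so the share that free RNA would give could not be read from a cell type without them. How much of the shares in either class came from free RNA was not tested. Fos and Hspa1a did not mark the same MOL1 cells more often than different ones: Hspa1a had a UMI in 52% of the 100 control dOLC cells with Fos and in 62% of the 142 without it, in 50% and 66.7% in control vOLCs, and in 51% and 65.9% in ectopic vOLCs. In each library the share was lower among the cells with Fos. Other immediate early genes went with Fos in control dOLCs: Fosb was found in 21% of cells with Fos and 3.52% of those without, Egr1 in 21% and 4.23%, and Dusp1 in 19% and 7.04%. Dnajb1 was found in 34% and 9.86% in control dOLCs and in 10.2% and 6.82% in ectopic vOLCs. By level, Dnajb1 was at 534, 542 and 236 CPM in MOL1 cells with 5 or more Fos UMIs and at 158, 241 and 85.5 CPM in the others, higher with Fos in all 3 libraries. A single cell with 24 of 71 Dnajb1 UMIs in control vOLCs and another with 25 of 89 in ectopic vOLCs were among those with Fos, and without them and the corresponding control dOLC cell the levels there were 510.2, 336 and 157 CPM. Fosb was at 64.3 CPM in such cells and 100.4 CPM in the others in control vOLCs, the other way from control dOLCs. The share with Jun was 37% and 37.3% in control dOLCs, but its level was 729, 964 and 399 CPM in the cells with 5 or more Fos UMIs against 349.9, 201 and 378 CPM in the others, close together in ectopic vOLCs alone.

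**Figure D2:**
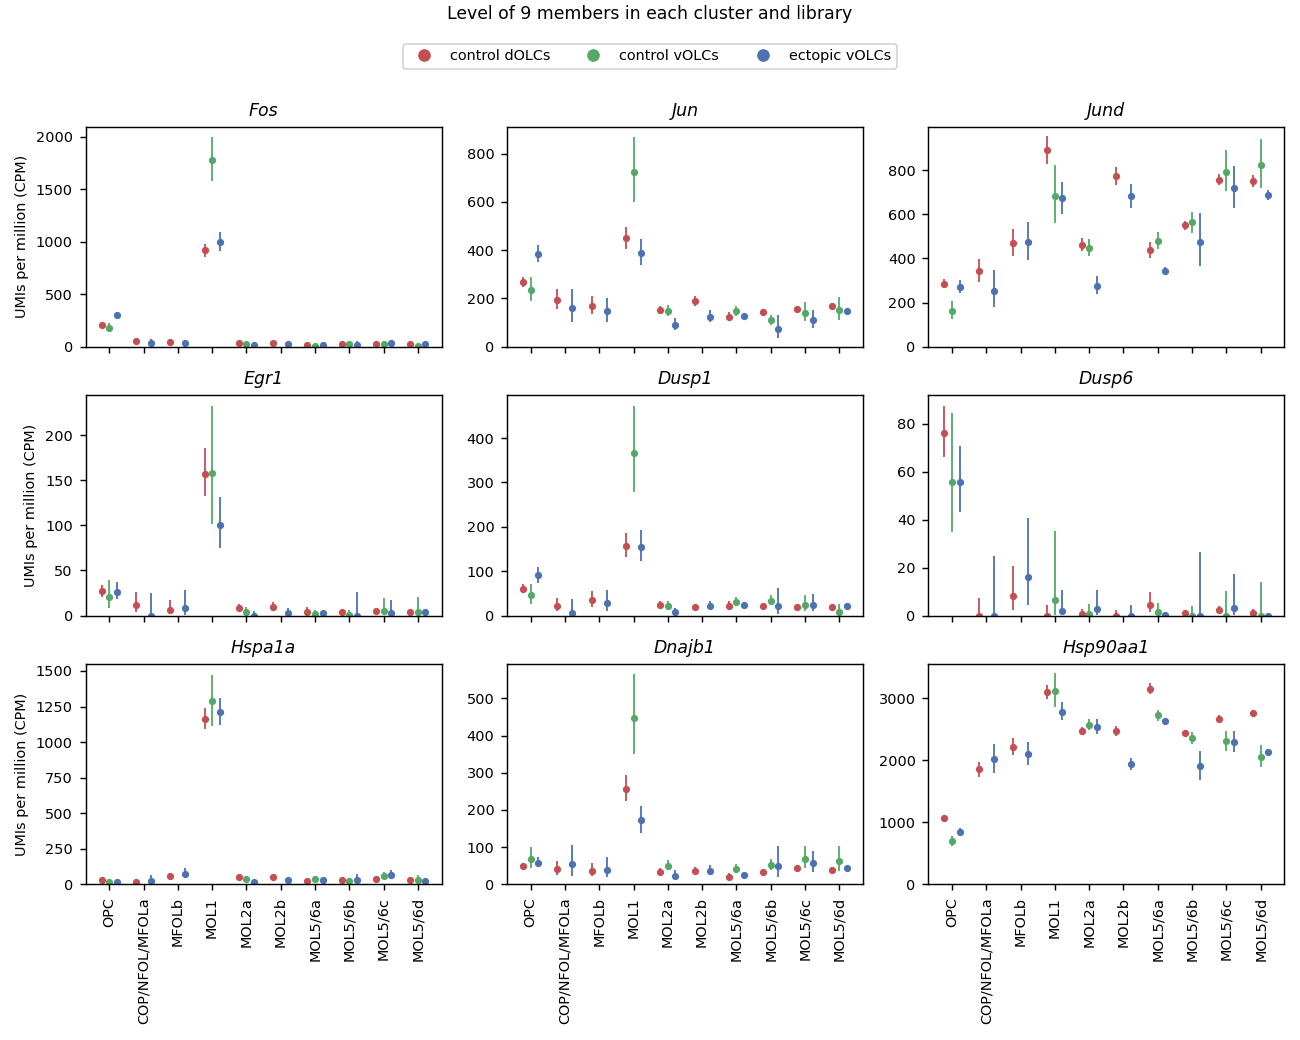
CPM of 9 immediate early and heat shock genes in each cluster and library with at least 20 cells, with 95% Poisson intervals. Fos and Hspa1a are highest in MOL1 in every library drawn, Dusp6 is highest in OPCs, and Hsp90aa1 varies far less between clusters.

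Across the other mature and forming clusters, Fos lay between 3.74 CPM (MOL5/6d, control vOLCs, from 1 UMI) and 52.2 CPM (the committed and newly formed cells COP/NFOL/MFOLa, control dOLCs), leaving out MOL1 and OPC. Its order by the mean of the libraries was MOL1 (1231 CPM), OPC (229 CPM), MFOLb (42.9 CPM), COP/NFOL/MFOLa (42.8 CPM), MOL5/6c (31.2 CPM), MOL2b (29.9 CPM), MOL2a (26.1 CPM), MOL5/6b (22.6 CPM), MOL5/6d (16.4 CPM) and MOL5/6a (15.6 CPM). MOL1, OPC and MFOLb did not overlap over the libraries, and from MFOLb downward neighbours in this order did. Hspa1a had the order MOL1 (1219 CPM), MFOLb (66.8 CPM), MOL5/6c (53.9 CPM), MOL2b (42.3 CPM) and MOL2a (35.8 CPM), with OPCs at the lowest mean (22.3 CPM) next to COP/NFOL/MFOLa (22.4 CPM). Below MOL1, neighbours in this order overlapped. The constitutive Hspa8 was highest in MOL2a, with 1915, 2173 and 2358 CPM, above the 3 OPC levels of 1025, 816 and 898 CPM.

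**Figure D3:**
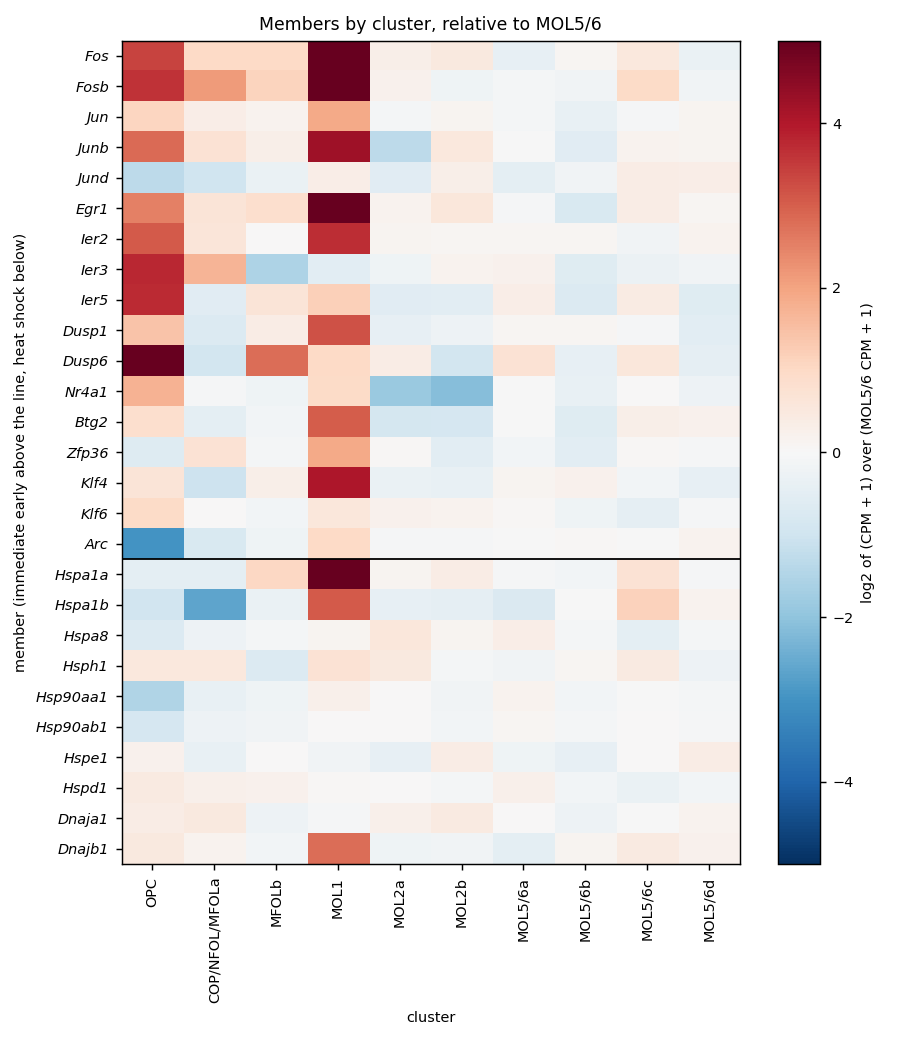
Heat map of the 27 genes with at least 200 UMIs (17 immediate early, 10 heat shock) over 10 clusters, coloured by log2 of the mean CPM plus 1 against that in MOL5/6, capped at 5. The MOL1 column is high for Fos, Fosb, Egr1, Junb, Klf4 and Hspa1a, and the OPC column for Dusp6, Ier3, Ier5 and Fos, while Hsp90aa1 and Hsp90ab1 are lower in the OPC column and near the MOL5/6 level in MOL1.

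OPCs (853, 121 and 330 cells, with cycling cells kept apart) showed a second pattern. Dusp6 was at 76.2, 55.7 and 55.7 CPM in OPCs, against 1.75, 0.685 and 0.189 CPM in MOL5/6, and 83.8% of its UMIs lay in OPCs. Ier3 and Ier5, stress-responsive early genes, had 62.4% and 60% of their UMIs in OPCs, with levels of 29.3, 50.7 and 38.3 CPM for Ier3, against 1.95, 1.71 and 2.18 CPM in MOL5/6, and 53.3, 63.3 and 54.9 CPM for Ier5, against 4.99, 2.4 and 2.93 CPM. All 3 genes were higher in OPCs than in MOL5/6 in every library, and Dusp6 and Ier3, as given above, had little of their RNA in MOL1. Ier2 was at 41.9, 63.3 and 62.4 CPM in OPCs (110, 25 and 75 UMIs), against 7.35, 5.14 and 5.01 CPM in MOL5/6. Its log2 ratios to MOL5/6 were 2.51 (2.12 to 2.91), 3.62 (2.64 to 4.65) and 3.64 (3.11 to 4.17). Fos was at 208 CPM (191 to 227) in control dOLCs, 177 CPM (138 to 224) in control vOLCs and 303 CPM (272 to 336) in ectopic vOLCs in OPCs, between its levels in MOL1 and MOL5/6 in each library. Against MOL5/6 the log2 ratio of Fos was 2.98 (2.79 to 3.17), 3.40 (2.85 to 3.96) and 3.92 (3.67 to 4.17). Jun was at 269, 236 and 385 CPM in OPCs, log2 ratios to MOL5/6 of 0.83, 0.80 and 1.496, and the orphan receptor Nr4a1 was at 52.6, 55.7 and 61.6 CPM against 17.0, 18.8 and 13.0 CPM in MOL5/6. Jund, at 286, 162 and 272 CPM, was lower in OPCs than in MOL5/6, and Arc had 19, 1 and 1 UMIs in OPCs.

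Hspa1a, in contrast with Fos, was not higher in OPCs, at 30.1, 17.7 and 19.1 CPM, than in MOL5/6. Its log2 ratios to MOL5/6 were -0.10 (-0.47 to 0.24), -0.95 (-2.30 to 0.15) and -0.63 (-1.30 to -0.01), against more than 5 in MOL1. Hsp90aa1 was at 1063, 697 and 850.1 CPM and Hsp90ab1 at 1411, 1112 and 1235 CPM, both below all 3 MOL5/6 levels. The chaperonin pair Hspd1 and Hspe1 and the co-chaperones Dnaja1 and Dnajb1 lay within 2-fold of MOL5/6 in all libraries. By the 2-fold count, 5 of 9, 1 of 6 and 9 of 11 immediate early genes were higher in OPCs than in MOL5/6 and 2 were lower in each library, while of 9 heat shock genes none was higher and 1, Hsp90aa1, was lower. This compares with 26.6%, 27.1% and 34.8% of all genes higher and 9.87%, 15.1% and 9.96% lower. As for MOL1, a gene sparse in MOL5/6 passes the filter only through OPCs and then has to differ. These counts too are a description. The median log2 ratio was 1.57, 0.71 and 2.25 for the immediate early genes, 0.17, -0.06 and 0.44 for the heat shock genes and 0.36, 0.27 and 0.58 for all genes. OPCs and oligodendrocytes differ so widely that the scaling matters here. TMM factors moved all log2 ratios by -0.66, -0.71 and -0.90, after which 3 of 18, 0 of 15 and 7 of 20 genes of the set past the filter were at least 2-fold higher, and 5, 6 and 6 were lower. With cells thinned to 1000 UMIs, 8, 8 and 9 genes passed the filter, of which 0, 0 and 2 were higher, and without the filter 13 of 33, 13 of 30 and 17 of 32 were. The shares of all genes under TMM factors, thinning or no filter are not given, so these counts describe the set alone.

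In OPCs the Fos UMIs were held by few cells. Thinned to 1000 UMIs, 7.97%, 4.96% and 10% of OPCs had a Fos UMI (6.24 to 10%, 1.84 to 10.5% and 6.98 to 13.8%), and at full depth 14.2%, 5.79% and 16.7%. The cells with 5 or more Fos UMIs numbered 34, 4 and 25, which was 3.99%, 3.31% and 7.58% of OPCs, and they held 76.6%, 91.4% and 87.1% of the Fos UMIs of their OPC cluster. The highest counts in a single OPC were 42, 24 and 47, against 5, 4 and 7 in a MOL5/6 cell, although MOL5/6 held more cells in each library. The level of Fos in the OPCs of a library thus rested for the most part on 34, 4 and 25 cells.

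**Figure D4:**
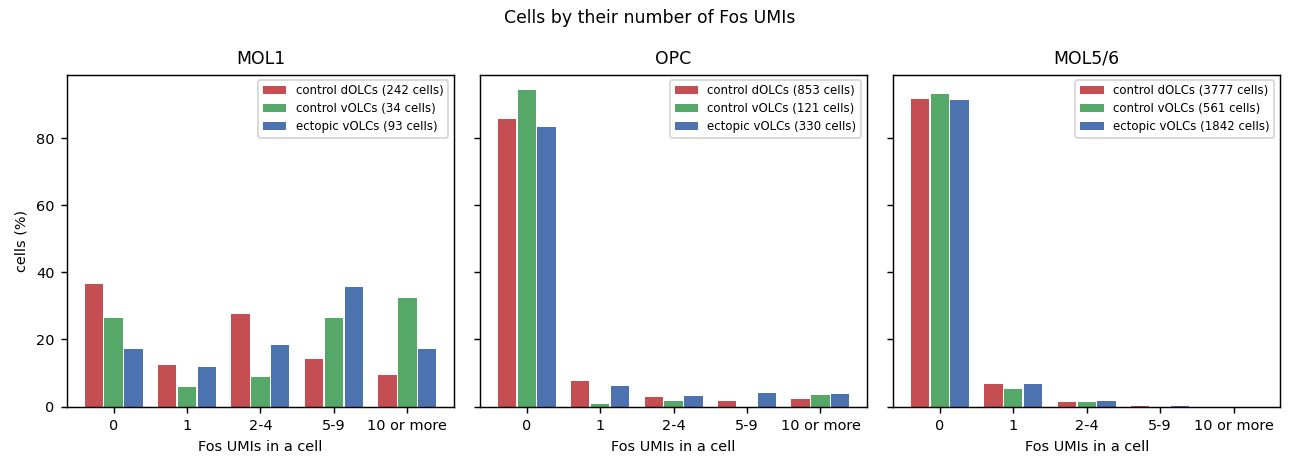
Percent of cells with 0, 1, 2 to 4, 5 to 9 or 10 and more Fos UMIs in MOL1, OPC and MOL5/6 of each library, at full depth. OPCs are mostly without Fos (85.8%, 94.2% and 83.3% at 0) with a small group at 10 or more (2.23%, 3.31% and 3.64%), whereas MOL1 cells spread over all classes.

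The Fos-rich OPCs, those with 5 or more Fos UMIs, were set beside the other OPCs for a part of the early genes. The Fos-rich cells were chosen by their Fos count, so the values that follow are a description, and control vOLCs with 4 such cells are left out. Junb, the AP-1 partner, was at 1118 against 18.7 CPM in control dOLCs and 887 against 9.83 CPM in ectopic vOLCs, comparing Fos-rich with other OPCs. Jun was at 2123 against 191 CPM in control dOLCs and 2662 against 215 CPM in ectopic vOLCs. Egr1 was at 376 against 12.3 CPM in control dOLCs and 336 against 3.58 CPM in ectopic vOLCs and Dusp1 at 667 against 34.9 CPM in control dOLCs and 935 against 27.7 CPM in ectopic vOLCs. These 4 genes were higher in the Fos-rich cells in both libraries. Hspa1a was at 188 against 23.4 CPM in control dOLCs and 95.9 against 13.4 CPM in ectopic vOLCs, and Hspa8 at 1362 against 1011 CPM in control dOLCs and 1259 against 871 CPM in ectopic vOLCs. Markers of OPCs were at 13784 against 13567 CPM in control dOLCs and 15562 against 14518 CPM in ectopic vOLCs, and neuron markers at 1146 against 1137 CPM in control dOLCs and 1283 against 1214 CPM in ectopic vOLCs. Microglia markers were at 65.8 against 79.8 CPM in control dOLCs and 156 against 73.3 CPM in ectopic vOLCs and endothelial markers at 94.0 against 60.3 CPM in control dOLCs and 108 against 76.0 CPM in ectopic vOLCs, and their part in the levels of the early genes was not tested. The median depth of the Fos-rich cells was 2786 and 2937 UMIs, against 2796 and 3425 for the other OPCs. After thinning, Junb was found in 35.3% of control dOLC OPCs with a Fos UMI and 1.53% of those without, and Jun in 47.1% and 16.3%. In ectopic vOLCs the shares were 33.3% and 2.02% for Junb and 54.5% and 20.5% for Jun. In MOL1 the picture for Hspa1a was the reverse, as it was at 1025, 983 and 1081 CPM in Fos-rich cells against 1211, 1948 and 1381 CPM in the others.

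Whether OLCs of ventral origin that fill the ablated cortex differ from controls in these genes was compared within each cluster. Both comparisons share the ectopic library, and each uses 1 library per condition, so the values are set side by side without a test. In OPCs, several early genes were moderately higher in ectopic vOLCs. Fos, with the 3 levels given above (547, 70 and 364 UMIs), had log2 ratios of 0.54 (0.34 to 0.73) to control dOLCs and of 0.77 (0.40 to 1.16) to control vOLCs. Jun, with 706, 93 and 463 UMIs, had log2 ratios of 0.52 (0.35 to 0.69) to control dOLCs and of 0.71 (0.38 to 1.05) to control vOLCs. Dusp1, at 60.6, 45.6 and 90.7 CPM, had log2 ratios of 0.58 (0.22 to 0.94) to control dOLCs and of 0.99 (0.26 to 1.80) to control vOLCs. For these 3 genes the ectopic level was above both controls, and each interval excluded 0 for counting error alone. The control libraries lay closer to each other, with control vOLCs against control dOLCs at -0.23 (-0.61 to 0.13) for Fos, -0.19 (-0.52 to 0.12) for Jun and -0.41 (-1.20 to 0.30) for Dusp1. Few cells hold much of this RNA, so counting intervals understate the error of these ratios. In ectopic OPCs, 7 cells with 5 or more UMIs of Dusp1 held 57.8% of its UMIs, and 18 such cells held 48.6% of those of Jun. Among OPCs with fewer than 5 Fos UMIs, Dusp1 was at 34.9, 34.1 and 27.7 CPM, lowest in ectopic vOLCs, and Jun at 191, 168 and 215 CPM. Without the 5% of cells with most UMIs the Fos ratio against control dOLCs was 0.40.

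The other early genes in OPCs varied in their order. Ier2 in ectopic vOLCs had log2 ratios of 0.57 (0.13 to 1.01) to control dOLCs and of -0.02 (-0.69 to 0.69) to control vOLCs. Those of Ier3 were 0.38 (-0.18 to 0.93) and -0.41 (-1.19 to 0.43), and those of Jund -0.07 (-0.27 to 0.11) and 0.75 (0.36 to 1.16). Nr4a1 was at 52.6, 55.7 and 61.6 CPM and Ier5 at 53.3, 63.3 and 54.9 CPM, with ratios to either control between -0.21 and 0.23 on the log2 scale and intervals that include 0. Klf6 was at 72.4, 58.3 and 94.0 CPM, log2 ratios of 0.38 (0.03 to 0.72) to control dOLCs and of 0.69 (0.03 to 1.40) to control vOLCs, but with cells thinned to 1000 UMIs the ratio against control dOLCs was -0.016. Dusp6 was lower in ectopic vOLCs than control dOLCs, -0.45 (-0.87 to -0.04), and equal to control vOLCs at 55.7 CPM in both. Junb, which had a UMI in under 10% of OPCs, was at 63.2, 17.7 and 70.7 CPM. Control vOLCs, with 7 UMIs, were low, -1.83 (-3.17 to -0.76) against control dOLCs, and ectopic vOLCs were near control dOLCs. Btg2, also in under 10% of OPCs, was at 20.9, 10.1 and 36.6 CPM (55, 4 and 44 UMIs), log2 ratios of 0.80 (0.20 to 1.40) to control dOLCs and of 1.85 (0.39 to 3.79) to control vOLCs, and 2 ectopic cells held 47.7% of its UMIs there. Of the 10 immediate early genes past the filter, none was past 2-fold in either comparison, the median log2 ratio was 0.38 against control dOLCs and 0.42 against control vOLCs, and 8 and 6 of them were above 0. The comparison with control vOLCs depended on the processing: of the whole set, 1 gene was at least 2-fold higher with TMM factors, size factors or the mean over cells, 2 without the 5% of cells with most UMIs, 3 of 30 without the filter and 3 of 9 with cells thinned to 1000 UMIs, where the immediate early median was 1.28 over 3 genes. Over all genes past the filter, scaled by totals, the medians were 0.08 and 0.04. Of these genes 0.556% and 5.3% were at least 2-fold higher, and 1.91% and 1.84% lower. No share of all genes is given for the other settings. For control vOLCs against control dOLCs, none of 17 genes of the set was past 2-fold, with 2.39% of all genes higher and 2.8% lower, and the immediate early median was -0.23. Thinned, 2 of 8 genes were lower and this median was -0.58 over 2 genes, and without the filter 1 of 30 was higher and 5 were lower.

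The heat shock genes of OPCs stood close to the controls. Hspa8 was at 1025, 816 and 898 CPM, and Hsp90aa1, at 1063, 697 and 850.1 CPM, was lowest in control vOLCs. In ectopic vOLCs, Hsp90aa1 was below control dOLCs (log2 -0.32, interval -0.43 to -0.22) and above control vOLCs (log2 0.29, interval 0.09 to 0.48). Hspe1, the small chaperonin subunit, was at 206, 152 and 239.6 CPM, log2 ratios of 0.22 (0.01 to 0.43) to control dOLCs and of 0.66 (0.25 to 1.08) to control vOLCs. Hspa8 and Hsp90ab1 had log2 ratios of -0.19 and -0.19 against control dOLCs and 0.14 and 0.15 against control vOLCs. Hsph1, Dnajb1, Dnaja1 and Hspd1 had log2 ratios between -0.23 and 0.42 to either control. The medians of the 8 heat shock genes past the filter were -0.04 and 0.15. Hspa1a was sparse in OPCs (79, 7 and 23 UMIs), and Hspb1, the small heat shock protein, had 31 UMIs in all cells. Oligodendrocyte marker RNA was higher in the OPC cluster of control dOLCs (5225, 2437 and 2418 CPM), and its part in these ratios was not tested. Of the further lists, 0 of 10 immediate early genes were past 2-fold in ectopic OPCs against control dOLCs (median 0.00), and 1 of 34 further chaperones was, Dnajb2, at -1.08.

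**Figure D5:**
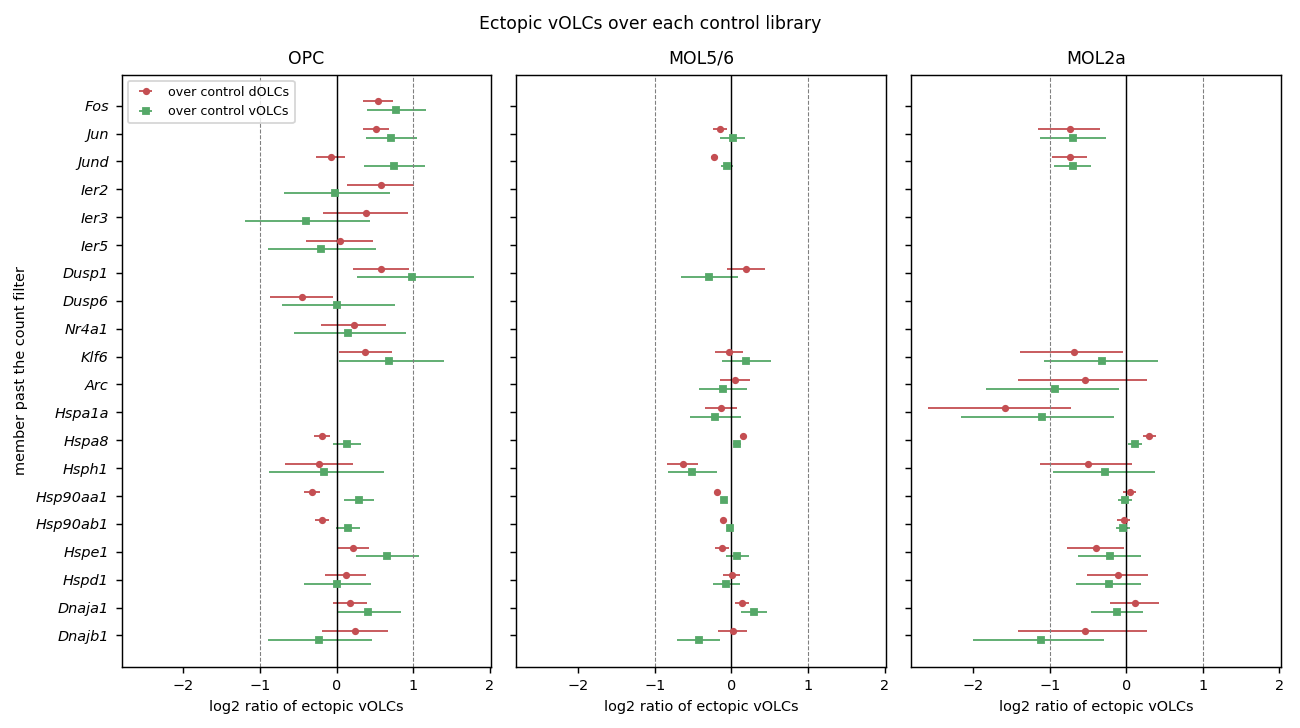
Log2 ratio of ectopic vOLCs to each control library in OPC, MOL5/6 and MOL2a for the immediate early and heat shock genes past the filter, with 95% intervals that cover counting error only. In OPCs Fos, Jun and Dusp1 lie above 0 against both controls, in MOL5/6 most genes lie near 0, and in MOL2a Jun and Jund lie below 0 against both controls.

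In MOL5/6, which held most cells of each library (3777, 561 and 1842), no gene of the set that passed the filter was past 2-fold in any pair, where 0.192% of all genes were higher and 1.95% lower against control dOLCs, 0.218% and 2.71% against control vOLCs, and 1.12% and 0.0577% between the controls. Without the filter 6 of 34, 2 of 32 and 5 of 33 genes were lower in these pairs. No share of all genes is given for this setting, so these counts cannot be set beside the shares above. They include sparse genes such as Dusp6, with 2 UMIs in ectopic vOLCs and 26 in control dOLCs. The median log2 ratios against control dOLCs and control vOLCs were -0.03 and -0.06 for 5 immediate early genes and -0.12 and -0.07 for 9 heat shock genes, but TMM factors moved the ratios of these comparisons by 0.17 and 0.15, which turns these medians positive. Of the heat shock genes past the filter, Hsph1 had the lowest ratio of ectopic vOLCs to either control, at 44.0 CPM (40.7 to 47.5) in control dOLCs, 40.4 CPM (33.5 to 48.4) in control vOLCs and 28.3 CPM (25.2 to 31.7) in ectopic vOLCs. It had log2 ratios of -0.64 (-0.84 to -0.44) to control dOLCs and of -0.51 (-0.83 to -0.20) to control vOLCs, although with cells thinned to 1000 UMIs the second became 0.080. Jun was at 151, 135 and 137 CPM, and its ratio of -0.15 (-0.24 to -0.05) against control dOLCs turned to 0.02 with TMM factors. Dusp1 was at 20.4, 28.4 and 23.2 CPM, highest in control vOLCs. Hspa1b, in fewer than 3% of MOL5/6 cells, had 102, 18 and 28 UMIs and was lower in ectopic vOLCs than control dOLCs, -1.38 (-2.03 to -0.76). In control vOLCs, Junb (142, 11 and 57 UMIs) and Ier5 (74, 7 and 31 UMIs) were lower than in control dOLCs, -1.34 (-2.38 to -0.46) and -1.06 (-2.42 to 0.06).

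The libraries filled the MOL5/6 clusters unequally: ectopic vOLCs had 900 cells in MOL5/6a and 837 in MOL5/6d, whereas control dOLCs had 1947 in MOL5/6b. For the chaperones this mattered. Hspa8 was at 1393, 1465 and 1541 CPM over MOL5/6 as a whole, higher in ectopic vOLCs than in control dOLCs (log2 0.15, interval 0.12 to 0.18). Within MOL5/6a the ratio was 0.04 (-0.02 to 0.11) and within MOL5/6d -0.18 (-0.23 to -0.13), so the whole-class value did not hold within these clusters. Hsp90aa1 was lower in ectopic vOLCs within both, -0.26 (-0.32 to -0.21) and -0.37 (-0.41 to -0.33), beside a whole-class ratio of -0.18 (-0.21 to -0.16) that became 0.0025 with median-of-ratios size factors. Hsph1 was at -0.17 (-0.68 to 0.35) in MOL5/6a and -0.55 (-0.90 to -0.20) in MOL5/6d. Jund was at -0.36 (-0.50 to -0.22) and -0.13 (-0.20 to -0.05), against -0.22 (-0.27 to -0.18) over the whole class.

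In MOL2a (498, 179 and 115 cells) Jun and Jund were lower in ectopic vOLCs, with 4 of the 24 immediate early genes past the filter and none of them past 2-fold. Jun was at 153 CPM (136 to 171) in control dOLCs, 148 CPM (127 to 172) in control vOLCs and 91.5 CPM (70.3 to 117) in ectopic vOLCs, log2 ratios of -0.74 (-1.15 to -0.34) to control dOLCs and of -0.70 (-1.13 to -0.27) to control vOLCs. Jund was at 461 CPM (432 to 491) in control dOLCs, 448 CPM (411 to 488) in control vOLCs and 276 CPM (238 to 318) in ectopic vOLCs, log2 ratios of -0.74 (-0.97 to -0.51) to control dOLCs and of -0.70 (-0.95 to -0.46) to control vOLCs. For both genes the control libraries overlapped and the ectopic library lay below them. Klf6 was at 56.0, 43.4 and 34.9 CPM and Arc at 33.7, 44.3 and 23.2 CPM, with log2 ratios for Klf6 of -0.68 (-1.38 to -0.04) to control dOLCs and of -0.32 (-1.08 to 0.41) to control vOLCs and for Arc of -0.54 (-1.42 to 0.27) to control dOLCs and of -0.93 (-1.84 to -0.10) to control vOLCs, so that for each gene 1 of the intervals included 0. Nr4a1, with 6, 3 and 4 UMIs, was too sparse to compare. The 4 immediate early genes past the filter had medians of -0.71 and -0.70 and all 4 lay below 0 against both controls, while the medians over all genes were -0.12 and -0.14. Hspa1a was at 52.5, 37.5 and 17.4 CPM (106, 44 and 12 UMIs), log2 ratios of -1.59 (-2.59 to -0.73) to control dOLCs and of -1.10 (-2.16 to -0.16) to control vOLCs. Hspa8 was higher in ectopic vOLCs than in control dOLCs, 0.30 (0.22 to 0.38), at 2358 against 1915 CPM. By the 2-fold count 1 of 13 genes of the set was lower against control dOLCs (Hspa1a) and 2 of 13 against control vOLCs (Hspa1a and Dnajb1), beside 6.99% and 5.08% of all genes lower and 0.684% and 0.227% higher, and the controls differed in none of 14 genes (1.4% of all genes higher, 0.609% lower). TMM factors moved the ratios to control vOLCs by 0.17, after which neither Hspa1a nor Dnajb1 was past 2-fold there. The intervals of Hspa1a and Arc to control vOLCs then included 0. Oligodendrocyte markers summed to 27626, 27066 and 32190.1 CPM in this cluster, highest where Jun and Jund were lowest, and the part of this in the levels was not tested. In MOL2b, with 235 and 106 cells in control dOLCs and ectopic vOLCs, Jun was also lower in ectopic vOLCs, -0.59 (-0.92 to -0.27), whereas Jund was at -0.18 (-0.33 to -0.04).

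In MOL1 the level of Fos was nearly the same in ectopic vOLCs and control dOLCs (log2 0.12, interval -0.04 to 0.29) and was highest in control vOLCs, 0.95 (0.75 to 1.15) against control dOLCs, where it came from 34 cells. Dusp1 and Ier2 were also highest in control vOLCs, 1.23 (0.76 to 1.68) and 1.05 (0.27 to 1.78) for control vOLCs against control dOLCs. Among the immediate early genes past the filter, Fosb alone was past 2-fold between ectopic vOLCs and control dOLCs, with 25.1 against 122 CPM, -2.28 (-3.23 to -1.44). Hspa1a stayed within -0.09 to 0.15 in the 3 pairs. Hspa1b and Hsph1 had lower levels in ectopic vOLCs than control dOLCs, -1.36 (-2.19 to -0.61) and -1.16 (-1.998 to -0.39). By the 2-fold count none of 22 genes was higher and 3 were lower against control dOLCs (0.512% and 4.06% of all genes), none of 17 higher and 3 lower against control vOLCs (3.97% and 2.01%), and 2 of 22 higher and 3 lower between the controls (1.41% and 5.56%). The Dnajb1 values of control vOLCs and ectopic vOLCs in MOL1 rest in part on the single cells named above.

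The remaining members were sparse. Fosl2 (51 UMIs), Atf3 (41), Nr4a2 (37), Klf2 (72) and Myc (79) had fewer than 80 UMIs over all 9291 cells. Of these, Klf2, an endothelial and immune regulator, had 58.3% of its UMIs in OPCs, with 27 UMIs there against 17 in MOL5/6 in control dOLCs, a log2 ratio of 3.17 (2.24 to 4.13), and Atf3, a stress-response factor, had 26.8% in MOL1. Myc had 0 of its UMIs in MOL1 and 17.7% in OPCs.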

How the data were processed

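Cells of 3 libraries of sorted OLCs were analysed. The nuclei of newborn mice named in the labels were not analysed here. Per the paper's methods and the submitters' processing notes, the authors aligned reads to mm10 with Cell Ranger (version 2.1.1 in the notes), and filtered and clustered cells with Seurat 3. The deposited table holds raw counts, as UMIs per gene and barcode, and the deposited annotation gives each cell's library and cluster; its 8 other columns were not used. Keeping barcodes with over 200 and under 3000 genes and at most 15% of counts from 13 mitochondrial genes gave the 9291 of 10081 barcodes that the authors kept. No doublets were removed by a caller; an alternative leaves out the 5% of cells with most UMIs.

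UMIs (23078181, 4846391 and 14293675 for control dOLCs, control vOLCs and ectopic vOLCs) were summed per library and cluster and divided by the sum over all genes (CPM). With 1 library per condition no test was run, and a gene counted as higher or lower when past 2-fold, over genes with at least 50 UMIs in the compared sums that were detected in 10% or more of the cells behind either. A count of 0 allows up to 3 counts. A UMI marks 1 captured molecule, and intervals and this limit cover counting error only. The 35 genes and the further gene lists were chosen with earlier results of these data known. All 35 genes are accounted for, and those described in full are the genes with at least 50 UMIs past 2-fold between libraries in OPC or MOL5/6 and the gene with most UMIs of each role. Other genes shown in full were picked after their values were seen. Alternatives were TMM factors (edgeR 4.0.16), median-of-ratios size factors (DESeq2 1.42.0, R 4.3.3), no filter, a mean over cells, totals without mitochondrial genes and Malat1, cells thinned to 1000 UMIs, at most 10% mitochondrial counts, no cells with 2 or more microglia marker UMIs, no cells of the top 5%, and a limit of 1.5-fold. A gene of the oligodendrocyte marker list is not reported here and was left out of that list's sums. The ratios and counts were tested on simulated data first. Python 3.11.15, numpy 2.4.6, scipy 1.17.1, pandas 2.3.3 and matplotlib 3.10.9 were used.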

Additional observations from a re-analysis of the deposited data

Results flagged for a closer look

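For 5 ratios between libraries the value lay on one side of 0 in OPCs and on the other in MOL5/6, with both intervals for counting error clear of 0. Each class is 1 library per condition, and the difference between the classes was not tested. For ectopic vOLCs against control dOLCs, the log2 ratio of Jun was 0.52 in OPCs and -0.15 in MOL5/6, that of Hspe1 was 0.22 and -0.13, and that of Hspa8 was -0.19 and 0.15. For ectopic against control vOLCs, Hsp90aa1 was at 0.29 in OPCs and -0.10 in MOL5/6. Between the control libraries, Hspa8 was at -0.33 in OPCs and 0.073 in MOL5/6. With TMM factors the MOL5/6 ratios of Jun and Hspe1 against control dOLCs and of Hsp90aa1 against control vOLCs turned positive, so that their opposite direction was lost (values in the next section). The Hspa8 ratio of ectopic vOLCs against control dOLCs in MOL5/6 did not hold within MOL5/6a or MOL5/6d.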

How the results depend on the processing

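No paired analysis was possible because there was a single library per condition, and for the same reason no replicate could be left out. The alternatives for MOL1, for MOL2a and for comparisons between clusters were chosen after seeing the data. Across the alternatives, 402 list medians and counts stayed within the limits set for a change and 54 did not. Among the other values (ratios of single genes, shares of cells and summed levels), 1246 stayed within their counting intervals or spread, 228 moved past them, and 14 ratios whose interval had excluded 0 changed direction. In every case the cause was not tested, beyond what the setting itself does to the number of genes or cells. Counts past 2-fold are given below for the set alone, without the share of all genes under the same setting.

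Scaling moved the ratios of ectopic vOLCs in MOL5/6 past 0. Against control dOLCs, Jun became 0.021 with TMM factors and 0.037 with size factors, Hsp90ab1 0.053 and 0.069, Hspe1 0.044 and 0.060, and Hsp90aa1 0.0025 with size factors. Against control vOLCs, Hsp90aa1 became 0.048 and 0.061, and the heat shock median 0.078 and 0.091. In MOL2a, TMM factors moved the ratios of ectopic vOLCs against control dOLCs by 0.16 and against control vOLCs by 0.17. Hspa1a and Dnajb1 were then no longer past 2-fold against control vOLCs. Both scalings gave 1 gene of the set at least 2-fold higher in ectopic than in control vOLC OPCs. For OPC against MOL5/6 both gave 3 genes higher and 5 lower in control dOLCs, 0 higher and 6 lower in control vOLCs, and 6 lower in ectopic vOLCs.

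With no filter, the counts at least 2-fold higher and lower in OPCs were 1 and 2 for ectopic vOLCs against control dOLCs, 3 and 2 against control vOLCs, and 1 and 5 for control vOLCs against control dOLCs. In MOL5/6, 6, 2 and 5 genes were lower in these pairs, and the immediate early median of the last was -0.25. For MOL1 against MOL5/6, 20 genes were higher in control vOLCs and 20 in ectopic vOLCs. For OPC against MOL5/6, 13, 13 and 17 genes were higher in the 3 libraries, and in control vOLCs 5 were lower and the immediate early median was 1.90.

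With cells thinned to 1000 UMIs, fewer genes passed the filter. The immediate early median in OPCs was 1.28 (3 genes) for ectopic against control vOLCs, with 3 genes higher, and -0.58 (2 genes) for control vOLCs against control dOLCs, with 2 lower. In MOL5/6 it was -0.23 (2 genes) for ectopic vOLCs against control dOLCs. MOL1 had 6, 3 and 4 genes higher than MOL5/6 in the 3 libraries and 1 lower in control vOLCs, and OPC had 0, 0 and 2 higher, with 1 lower in ectopic vOLCs. In OPCs, Klf6 for ectopic vOLCs against control dOLCs became -0.016, and Ier3 for control vOLCs against control dOLCs became -0.18. In MOL5/6, Hsph1 for ectopic against control vOLCs became 0.080, and Hsp90aa1 for control vOLCs against control dOLCs became 0.042.

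At 1.5-fold, 6 genes were higher in OPCs of ectopic than of control vOLCs, 1 was higher and 2 were lower between the controls, and 1 was lower in MOL5/6 of ectopic vOLCs than of control dOLCs. MOL1 had 1 gene lower than MOL5/6 in control vOLCs, and OPC had 4 higher and 6 lower in control vOLCs and 6 lower in ectopic vOLCs. The mean over cells gave 1 gene, and leaving out the 5% of cells with most UMIs gave 2, at least 2-fold higher in OPCs of ectopic than of control vOLCs. With at most 10% mitochondrial counts, Hspa8 in MOL5/6 of ectopic against control vOLCs became -0.000124. Control vOLCs had the fewest OPCs (121) and MOL1 cells (34) of the 3 libraries.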

Other observations

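The barcodes that the authors' filter removed (388, 114 and 288 in control dOLCs, control vOLCs and ectopic vOLCs) also held these genes. Fos was at 128, 136 and 123 CPM in removed barcodes, against 83.4, 89.3 and 79.8 CPM in kept cells. Hspa1a was at 52.4, 66.2 and 57.2 CPM in removed barcodes, against 77.9, 73.9 and 71.6 CPM in kept cells. Fos was therefore higher and Hspa1a lower among removed barcodes in all 3 libraries, with overlapping intervals for Hspa1a in control vOLCs. The removed barcodes were deep, with a median of 10333.5, 9289.5 and 11305 UMIs, and 72.2%, 57.9% and 92.4% of them had 3000 or more genes.

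Over the 27 sums of a library and a cluster with at least 100000 UMIs (sums of 1 library share its preparation and depth), the genes whose log level followed the summed immediate early level most closely were Dnajb1 (Pearson r = 0.89), the predicted gene Gm26802 (0.84), Hspa1a (0.84), Klf10 (0.73) and Hspa1b (0.72). For Hspa1a they were the predicted gene Gm26825 (0.88), Dnajb1 (0.84), Hspa1b (0.78) and Klf4 (0.77). Over the 24 sums left without MOL1, a choice made after seeing the data, r with the summed immediate early level was 0.52 for Dnajb1, 0.52 for Gm26802, 0.15 for Hspa1a, 0.52 for Klf10 and 0.41 for Hspa1b. With Hspa1a it was 0.20 for Gm26825, 0.071 for Dnajb1, 0.61 for Hspa1b and 0.0088 for Klf4. The values are a description, with no test.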
